A study of Mus musculus with 24 samples.

Results

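The genes described here are 10 genes of leukocyte adhesion and endothelial activation, chosen by name among the 55536 gene entries of the expression table. They are the selectins Sele and Selp, the immunoglobulin-type adhesion receptors Icam1, Vcam1 and Pecam1, the junction genes Cdh5 and Esam, and the endothelial products Vwf, Thbd and Angpt2. Each of the 10 names matched 1 entry. RNA was sequenced in 24 liver libraries of wild-type Balb/c mice aged 6 weeks. They were 8 from healthy controls (Con), 8 from mice with acute pancreatitis (AP) and 8 from mice with severe acute pancreatitis (SAP). No genetic change or drug treatment is named for any group. The sources used here do not say how pancreatitis was brought about, or how long it lasted. Libraries are called by the numbers in their titles (Con 1 to Con 10, AP 11 to AP 19, SAP 21 to SAP 29). Nothing in the labels says that every library is a separate mouse, so the p-values describe the spread between libraries, which may be partly technical. Where livers are counted below and in the figures, each is 1 library.

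Endothelium that senses tumour necrosis factor, interleukin-1 or bacterial products puts adhesion receptors on its surface. Selectins catch passing leukocytes and let them roll, and ICAM-1 and VCAM-1 then hold them through leukocyte integrins. PECAM-1, VE-cadherin (Cdh5) and ESAM sit at the junctions that leukocytes cross. P-selectin and von Willebrand factor are stored together in Weibel-Palade bodies, from which angiopoietin-2 is also released, and thrombomodulin (Thbd) turns thrombin into an activator of the anticoagulant protein C. The sinusoids of the liver are lined by a fenestrated endothelium that holds little E- and P-selectin at rest, and hepatocytes can also make ICAM-1 in inflammation.

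Levels are in TPM, transcript abundance scaled to transcript length and to a fixed total per library, so levels can be set side by side between genes. TPM keeps no read counts, and the depth is therefore unknown. Columns summed to between 986423 and 993642. Differences between groups were tested with limma on log2(TPM + 1) over all genes that averaged 1 TPM or more, and the threshold was a Benjamini-Hochberg adjusted p of 0.05. A log2 change on this scale, given with its standard error (SE), understates the change of low genes. SAP livers stood apart from the others as a whole. Transcripts of the mitochondrial genome took 2.80 to 6.26% of TPM in SAP against 12.5 to 22.2% in controls and 7.81 to 13.7% in AP, and the serum amyloid A genes took 7.37 to 12.4% in SAP, 0.051 to 1.14% in controls and 0.302 to 1.28% in AP. Of the 10555 genes tested, 74.0% passed between SAP and controls, 44.2% as higher and 29.8% as lower. Between SAP and AP 72.1% passed, and between AP and controls 5.48%. Under median centring of each library, the share of higher genes among those that passed went from 59.7 to 47.5% for SAP against controls and from 56.9 to 46.4% for SAP against AP. Without the 50 most abundant genes it went from 79.4 to 47.4% for AP against controls. The median log2 change of all genes, 0.21 for SAP against controls, was -0.06 under median centring.

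Of the 10 genes, 8 averaged 1 TPM or more and were tested. Selp and Thbd reached that mean only through the SAP livers, with means of 0.644 and 0.215 TPM over controls and AP together. Sele (mean 0.200 TPM) and Angpt2 (0.177 TPM) stayed below it, and their tests come from a second limma fit of the 26977 entries above 0 in at least 1 library, in which all 10 genes have a value.

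In control livers the levels ran from Icam1 at 11.2 ± 6.00 TPM (mean ± SD, n = 8) through Vwf (4.49 ± 1.99), Esam (2.34 ± 0.579), Pecam1 (2.05 ± 0.709), Cdh5 (1.74 ± 0.508) and Vcam1 (1.58 ± 0.749) to Selp (0.658 ± 0.219), Thbd (0.190 ± 0.149) and Angpt2 (0.0700 ± 0.0460). Sele was listed at 0 in 6 of 8 controls and at 0.01 and 0.04 TPM in the others. The ranges of neighbours in this order overlapped at every step. In SAP livers Icam1 (80.5 ± 32.5 TPM) was followed by Selp (21.5 ± 7.40), then Esam (8.42 ± 2.31), Cdh5 (7.13 ± 2.46), Vcam1 (6.62 ± 2.61), Thbd (3.18 ± 1.85), Pecam1 (2.95 ± 1.76), Vwf (2.73 ± 1.29), Sele (0.585 ± 0.388) and Angpt2 (0.364 ± 0.174). There the ranges of Icam1 and Selp did not overlap, nor did those of Selp and Esam, while every later neighbour overlapped with the next. Selp thus lay among the low genes in controls and above all but Icam1 in SAP.

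**Figure D1:**
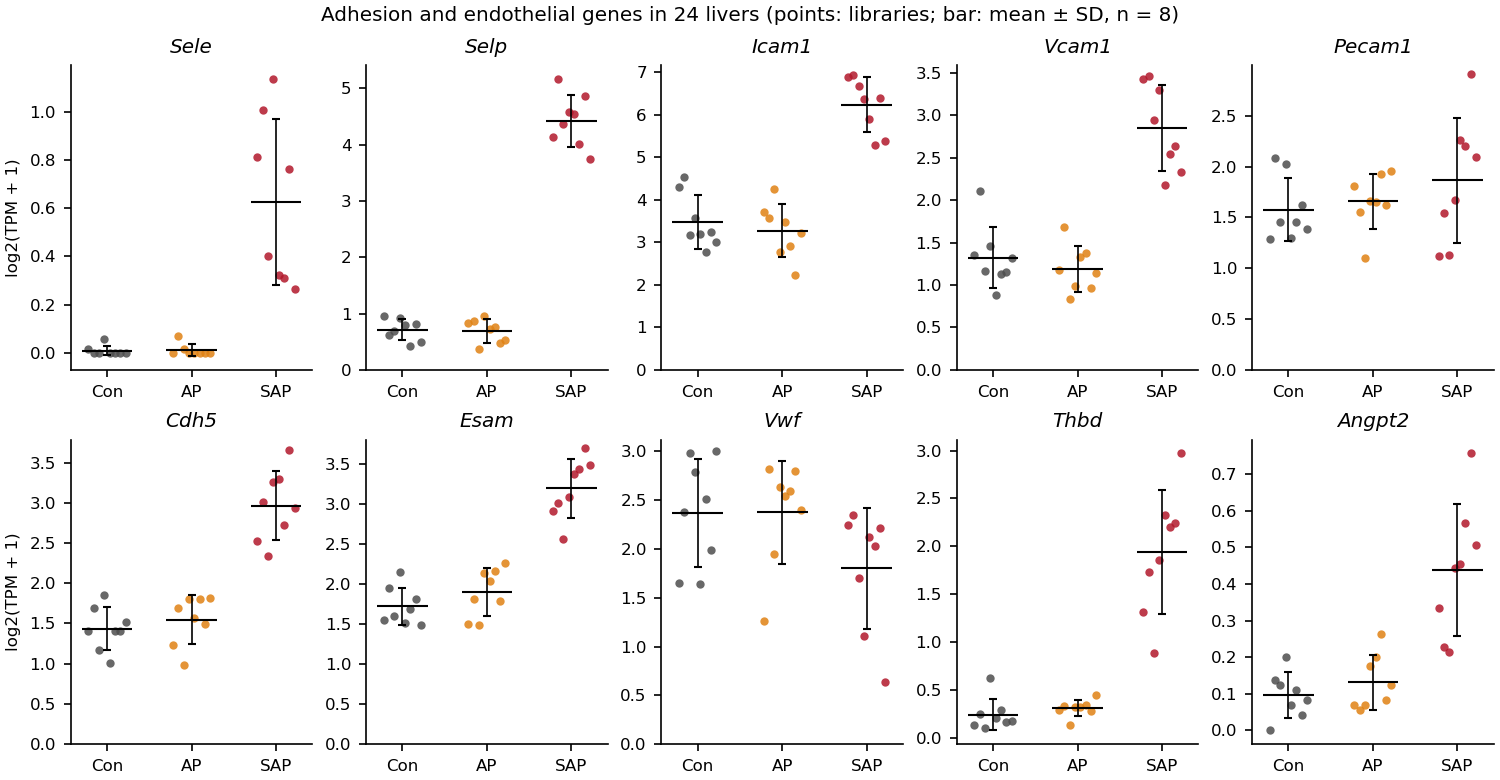
The log2(TPM + 1) level of each of the 10 genes in every library, by group, with 1 point per liver and the mean ± SD of 8 livers as bars; vertical scales differ between panels. All 8 SAP livers lie above every control for Sele, Selp, Icam1, Vcam1, Cdh5, Esam, Thbd and Angpt2, while Pecam1 and Vwf overlap between groups and AP livers overlap with controls throughout.

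AP livers were compared with controls to ask whether these genes differ in the milder disease. None of the 8 tested genes passed in limma, 0 had an unadjusted p under 0.05, and the smallest adjusted p was 0.562 (Esam). The fit of all 10 genes likewise called 0, with 0 at an unadjusted p under 0.05, where 0.823% of all entries passed. Icam1 was between 3.71 and 18.1 TPM in AP (median 9.27) and between 5.85 and 22.3 TPM in controls (median 8.27), with a log2 change of -0.20 (SE 0.30). Selp was between 0.29 and 0.94 TPM in AP and between 0.35 and 0.95 TPM in controls (log2 change -0.03, SE 0.16). Esam, with the smallest p, was at 2.80 ± 0.760 TPM in AP and 2.34 ± 0.579 in controls (log2 change 0.18, SE 0.15). AP livers overlapped with controls for each of the 10 genes.

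The comparison of SAP with control livers asked the same of the severe disease. Of the 10 genes, 8 were higher in SAP and passed in the fit without a filter, and Pecam1 and Vwf did not. In that fit 24.9% of all entries passed as higher. For these 8 genes every SAP liver lay above every control, which held for 11.2% of all 26922 gene names above 0 in some library. In the main fit 6 of the 8 tested genes passed as higher and 0 as lower, where 44.2% of all genes tested passed as higher. The median log2 change was 1.53 for the 8 and 0.21 for all genes tested. Selp and Thbd are in this count and median, and were tested only because SAP levels were high. Icam1, Vcam1, Cdh5 and Esam passed and did not need SAP to be tested. In whole liver, more cells of a type and more RNA per cell cannot be told apart.

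Both selectins were higher in SAP. Selp, which encodes the P-selectin of endothelium and platelets, was between 12.4 and 35.0 TPM in SAP livers with a median of 20.9, and at 0.35 to 0.95 TPM in controls with a median of 0.680. The lowest SAP liver (SAP 29) was still far above the highest control (Con 1). The means differed 32.7-fold, and the log2(TPM + 1) change was 3.71 (SE 0.16, limma adjusted p = 2.88e-16). Sele, which encodes the E-selectin that activated endothelium makes anew, was between 0.20 and 1.20 TPM in SAP with a median of 0.510. It was above 0 in all 8 SAP livers and listed at 0 in 6 controls and 6 AP livers, so no fold is given. Its log2(TPM + 1) change was 0.62 (SE 0.10, limma without a filter, adjusted p = 1.1e-05).

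Part of the Selp exons, 9.93% of their bases, lies opposite exons of the long noncoding RNA gene Gm16548, and 4.22% opposite Gm16587. The strand setting of the authors' counting is not given in the sources used here, so reads from these places cannot be assigned. Gm16548 ran the other way from Selp, at 4.25 to 7.49 TPM in controls and 0.40 to 1.84 TPM in SAP. Platelets also carry Selp. The summed level of 10 platelet and megakaryocyte markers was 14.6 to 59.7 TPM in SAP and 5.85 to 15.4 TPM in controls. In SAP it was mostly Pf4 and Clec1b, with means of 19.0 and 9.47 TPM. Of the 3 markers tested, Pf4 was higher (19.0 ± 6.75 against 1.81 ± 0.733 TPM, limma adjusted p = 8.95e-12), Itga2b was lower and Clec1b did not pass. The other 7 were too low to be tested. Ppbp had a mean of 0.353 TPM in SAP and 0.143 in controls, and Treml1 0.164 and 0.0113. Gp6 reached 1.19 TPM in SAP and 2.68 TPM in controls, and Gp1ba, Gp1bb, Gp5 and Gp9 stayed at or below 0.5 TPM in every SAP liver, with 0 in 3 of 8 for Gp5 and Gp9. The part of platelets in the Selp level was not tested.

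Icam1 encodes the receptor for the leukocyte integrins LFA-1 and Mac-1. It was between 37.9 and 121 TPM in SAP with a median of 82.7, against 5.85 to 22.3 TPM in controls with a median of 8.27. The SAP livers with the lowest levels were SAP 27 and SAP 29, and the highest control was Con 3. The means differed 7.21-fold (log2 change 2.76, SE 0.30, limma adjusted p = 7.94e-09). Vcam1, the receptor for the integrin VLA-4 of monocytes and lymphocytes, was between 3.53 and 10.0 TPM in SAP (median 5.96) and between 0.85 and 3.30 TPM in controls (median 1.37). The groups were separated by a narrow gap between SAP 26 and Con 3. The means differed 4.20-fold (log2 change 1.53, SE 0.19, limma adjusted p = 8.95e-08). Both genes are also made outside endothelium. Markers of Kupffer cells, the resident macrophages, mostly fell (8 of 10 tested, 1 rose), with sums of 103 to 221 TPM in SAP and 118 to 453 TPM in controls. Stellate cell and mesenchymal markers split evenly, with 3 of 9 higher and 3 lower and sums of 57.9 to 147 against 28.6 to 74.6 TPM. These sums mostly follow Dcn, the highest of them, at 80.3 TPM in SAP and 23.1 TPM in controls. The 8 monocyte markers summed to 377 to 666 TPM in SAP and 66.1 to 182 TPM in controls, with 1 of 4 tested higher (Fn1, which hepatocytes make too) and 1 lower. Without Fn1 the sums overlapped, at 37.8 to 62.1 TPM in SAP and 18.3 to 70.0 TPM in controls. The part of these cells in the Icam1 and Vcam1 levels was not tested.

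Promoters are shown for the genes above whose levels rose from the lowest or to the highest values, Sele, Selp and Icam1, which were also the only ones among the 10 genes to match the RefSeq promoter table (build GRCm38.p6). Each run gives the 250 bases before the RefSeq start on the plus strand, 5′ to 3′. They lie at chr1:164047984-164048233 for Sele, chr1:164115014-164115263 for Selp and chr9:21015690-21015939 for Icam1. Capitals mark matches on either strand to GGNNNTTCC (letters that fit many NF-kB sites), TGANTCA (AP-1) and TATAAA, a set of letters settled on after these sequences had been read.
Sele: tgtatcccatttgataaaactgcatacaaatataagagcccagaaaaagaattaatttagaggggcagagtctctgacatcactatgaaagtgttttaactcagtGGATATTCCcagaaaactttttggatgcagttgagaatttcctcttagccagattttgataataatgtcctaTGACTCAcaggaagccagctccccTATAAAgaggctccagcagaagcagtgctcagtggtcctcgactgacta
Selp: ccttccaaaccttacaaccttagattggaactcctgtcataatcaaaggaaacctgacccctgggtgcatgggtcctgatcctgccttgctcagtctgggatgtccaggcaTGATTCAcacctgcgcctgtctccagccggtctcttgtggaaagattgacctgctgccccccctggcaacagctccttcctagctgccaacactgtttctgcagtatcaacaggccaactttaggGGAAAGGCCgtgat
Icam1: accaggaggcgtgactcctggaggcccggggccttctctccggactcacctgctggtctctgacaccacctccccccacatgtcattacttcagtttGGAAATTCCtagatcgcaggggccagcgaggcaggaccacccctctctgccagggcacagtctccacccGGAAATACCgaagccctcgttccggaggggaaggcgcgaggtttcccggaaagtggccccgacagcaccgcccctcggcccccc
The letters GGNNNTTCC occurred in all 3 promoters, as GGATATTCC ending 137 bases before the start of Sele, as GGAAAGGCC (the opposite strand) ending 6 bases before Selp, and at 2 places in Icam1. The first of these, GGAAATTCC, reads as a match on both strands and ends 145 bases before the Icam1 start. In the same 250-base windows of all 32851 promoters of the table, 15.7% hold the NF-kB letters, 6.75% the AP-1 letters and 12.4% the TATA letters. The AP-1 letters were found in Sele and Selp and not in Icam1, and the TATA letters in Sele. None of these motifs overlapped another in the 3 promoters. The matches describe letters and say nothing of binding in these livers.

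The junction genes split. Cdh5, which encodes VE-cadherin, was between 4.06 and 11.6 TPM in SAP (median 6.83) and between 1.02 and 2.62 TPM in controls (median 1.65), with no overlap (log2 change 1.53, SE 0.17, limma adjusted p = 1.22e-08). Esam, an adhesion molecule of endothelial tight junctions and platelets, was between 4.89 and 12.0 TPM in SAP (median 8.44) and between 1.80 and 3.45 TPM in controls (median 2.14), again with no overlap (log2 change 1.48, SE 0.15, limma adjusted p = 4.59e-09). Pecam1, which sits at the same junctions and is also made by platelets and leukocytes, was between 1.18 and 6.50 TPM in SAP (median 2.73) and between 1.44 and 3.24 TPM in controls (median 1.75). Of the SAP livers 4 lay above every control and 2 below every control. It did not pass (log2 change 0.29, SE 0.21, limma adjusted p = 0.208). Within single libraries, the ratio of Cdh5 to Pecam1 was 1.55 to 4.03 in SAP and 0.685 to 1.15 in controls, a ratio formed after the levels were seen and one that a common scaling of the library cannot move.

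Among the endothelial products, Thbd was between 0.84 and 6.84 TPM in SAP (median 3.10) and between 0.07 and 0.54 TPM in controls (median 0.140). The highest control, Con 6, lay below the lowest SAP liver, SAP 24. The means differed 16.7-fold (log2 change 1.70, SE 0.19, limma adjusted p = 1.93e-08). Angpt2, an antagonist of angiopoietin-1 at the receptor Tie2, was low in all groups, at 0.16 to 0.69 TPM in SAP (median 0.365) and 0 to 0.15 TPM in controls (median 0.0700). Its log2 change was 0.34 (SE 0.06, limma without a filter, adjusted p = 3.1e-05), and levels this close to 0 rest on few reads. Vwf, the platelet-tethering glycoprotein stored beside P-selectin, did not pass. It was between 0.56 and 4.09 TPM in SAP (median 3.22) and between 2.11 and 7.01 TPM in controls (median 4.45), with 2 SAP livers (SAP 25 and SAP 29) below every control (log2 change -0.57, SE 0.27, limma adjusted p = 0.0594). It passed as lower in 11 of 40 alternatives (adjusted p between 0.012 and 0.152 over all of them), among them median centring (log2 change -0.84) and quantile normalization (-0.75). Leaving out any one of Con 1, Con 7, Con 9, AP 11, SAP 21, SAP 22 or SAP 28 also brought it past the threshold.

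**Figure D2:**
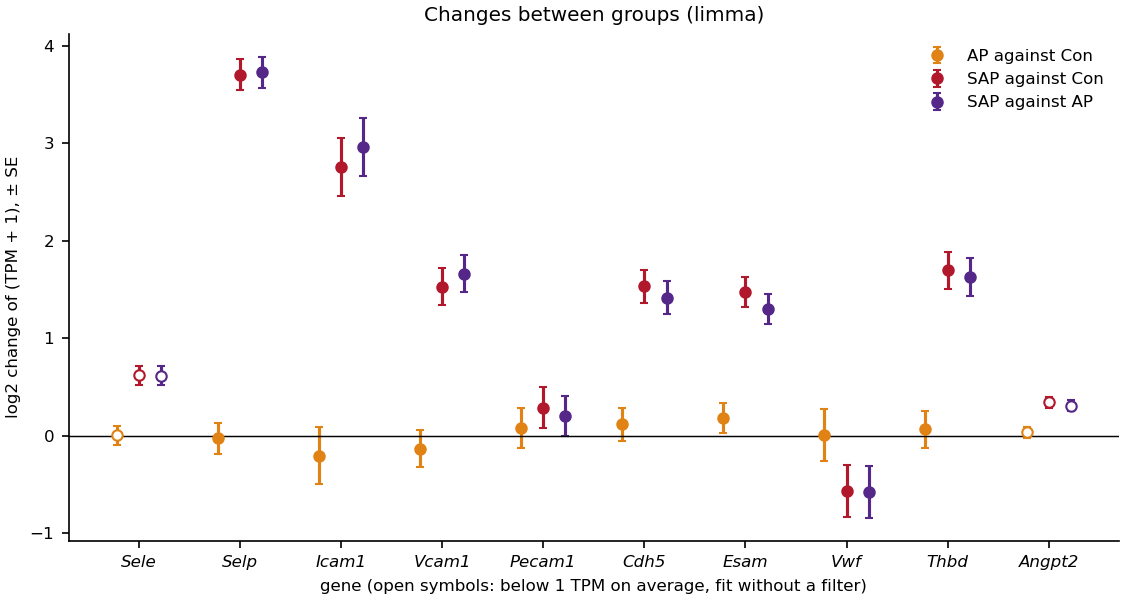
The log2 change of (TPM + 1) with its SE from limma for the 10 genes in the 3 comparisons; open symbols are the 2 genes below 1 TPM on average, from the fit without a filter. AP against controls stays near 0 for every gene, while Selp changes most in SAP (3.71 against controls and 3.73 against AP) and Vwf points down.

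The comparison of SAP with AP livers tests whether the severe disease differed from the mild one, and uses the same SAP livers as the comparison above. In the fit without a filter the same 8 genes passed as higher in SAP, where 23.7% of all entries passed as higher. In the main fit 6 of 8 passed, with 41.0% of all genes as background. Selp and Thbd, tested only because SAP levels were high, are again among them. All 8 SAP livers lay above every AP liver for 7 of the 10 genes, and for Angpt2 6 of 8 did. The share over all gene names was 11.1%, again mostly names under 1 TPM and not matched in level. Selp changed by 3.73 (SE 0.16, limma adjusted p = 2.53e-16) and Icam1 by 2.96 (SE 0.30, adjusted p = 2.65e-09). Vcam1 changed by 1.67, Thbd by 1.63, Cdh5 by 1.42 and Esam by 1.30, each with an adjusted p of at most 5.22e-08. Pecam1 (0.21, SE 0.21, limma adjusted p = 0.378) and Vwf (-0.58, SE 0.27, limma adjusted p = 0.0573) did not pass. Vwf passed as lower than in AP in 9 of 40 alternatives (adjusted p between 0.0128 and 0.388), among them quantile normalization (-0.72), median centring (-0.80) and leaving out any one of AP 11, AP 13, SAP 21, SAP 22 or SAP 28.

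The 8 SAP livers were not alike. By title number, SAP 21, 22, 24 and 25 differ from SAP 26 to 29 across many genes, a division known from the values and not from the labels, so it is described without a test. The ranges of the sets of 4 did not overlap for 5 of the 10 genes. Among those that averaged 1 TPM or more this held for 4 of 8, beside 33.4% of all such genes. Vcam1 was higher in SAP 21 to 25 (6.69 to 10.0 TPM, against 3.53 to 5.23). The other 4 genes were lower there. Pecam1 was at 1.18 to 2.19 TPM against 3.27 to 6.50, Esam at 4.89 to 7.51 against 9.37 to 12.0, Thbd at 0.84 to 2.61 against 3.59 to 6.84, and Angpt2 at 0.16 to 0.36 against 0.37 to 0.69. Icam1 had means of 106 and 55.2 TPM, with SAP 28 inside the range of the first set. Selp overlapped widely (16.5 to 35.0 and 12.4 to 28.2 TPM), as did Cdh5 and Vwf.

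**Figure D3:**
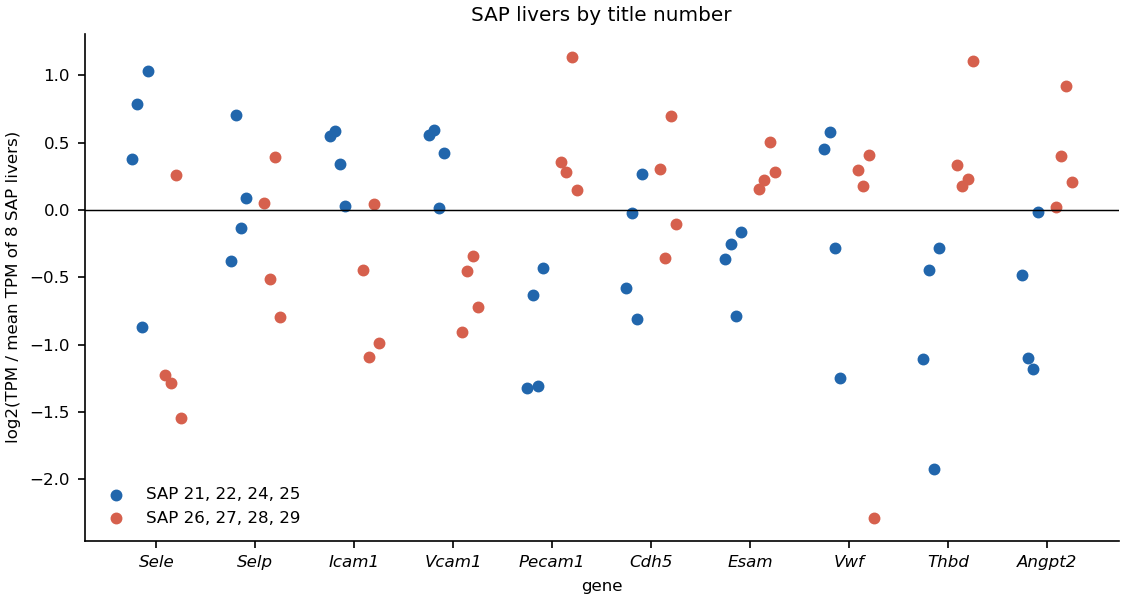
The level of each gene in the 8 SAP livers as log2 of TPM over the mean of all 8, with SAP 21, 22, 24 and 25 in blue and SAP 26 to 29 in red. Vcam1 lies higher in the first set and Pecam1, Esam, Thbd and Angpt2 lie higher in the second, without overlap, while Selp and Cdh5 overlap.

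Results that rest on these livers were taken with and without each set. Without SAP 21, 22, 24 and 25, the log2 change of Pecam1 was 0.79 against controls and 0.70 against AP. Without SAP 26 to 29 it turned to -0.21 against controls and -0.29 against AP. The Pecam1 ranges of the sets did not overlap, so these changes follow from which livers were left out. No p-value is given for them. The calls of Selp, Icam1, Vcam1, Cdh5 and Esam against controls held without either set. Thbd passed without the first set and fell under the mean of 1 TPM, and so out of the test, without the second. The summed level of pan-endothelial markers also separated the sets, at 45.4 to 64.0 TPM in SAP 21 to 25 and 66.2 to 89.4 TPM in SAP 26 to 29. Its part in these differences was not tested.

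The labelled tissue was checked against its markers. Of 10 hepatocyte genes 2 rose in SAP, 3 fell and 5 did not pass. The highest, Apoa1, a lipoprotein component, was at 19560 ± 1763 TPM in controls and 17990 ± 2478 in SAP (limma adjusted p = 0.242), while Ttr, the carrier transthyretin, fell from 5826 to 2808 TPM. The 15 pan-endothelial markers, none of them among the 10 genes, summed to 62.1 to 104 TPM in controls, 49.2 to 94.2 TPM in AP and 45.4 to 89.4 TPM in SAP. In SAP 3 of 12 tested markers rose, 1 of them (Robo4) tested only because SAP levels were high. Of the others 6 fell and 3 did not pass. The median log2 change of the 12 was -0.27, and under median centring 2 rose and 7 fell. Plvap, a protein of endothelial diaphragms and the highest of them, was at 20.7 ± 5.70 TPM in controls and 24.0 ± 4.69 in SAP (limma adjusted p = 0.251, with the sign of the change turning under median centring). Sinusoidal markers fell in 6 of 10 and rose in 2, with sums of 80.9 to 157 TPM in controls and 30.3 to 91.0 TPM in SAP. Dnase1l3, an endonuclease of sinusoidal endothelium and Kupffer cells, fell from 28.1 ± 7.10 to 6.28 ± 1.29 TPM (limma adjusted p = 3.31e-11). The 2 sinusoidal markers that rose were Stab2, from 1.92 to 9.25 TPM (limma adjusted p = 1.14e-06), and Lyve1, from 0.301 to 11.2 TPM (limma adjusted p = 2.15e-12). Lyve1 was tested only because SAP levels were high. Of 12 neutrophil markers 4 were tested and rose, 2 of them (Retnlg and Ngp) tested only because SAP levels were high, with sums of 128.5 to 362 TPM in SAP against 2.84 to 29.5 TPM in controls. S100a9, a calcium-binding protein abundant in neutrophils, was at 135 ± 46.8 and 5.85 ± 5.42 TPM (limma adjusted p = 2.59e-12). Ly6g, Csf3r and Cxcr2, which mark neutrophils more narrowly and were too low to be tested, had means of 0.711, 1.27 and 0.529 TPM in SAP and 0.0963, 0.423 and 0.129 TPM in controls. Elane, also too low to be tested, went the other way, with means of 0.0563 TPM in SAP and 0.205 TPM in controls. The part of infiltrating cells in the levels of the 10 genes was not tested.

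**Figure D4:**
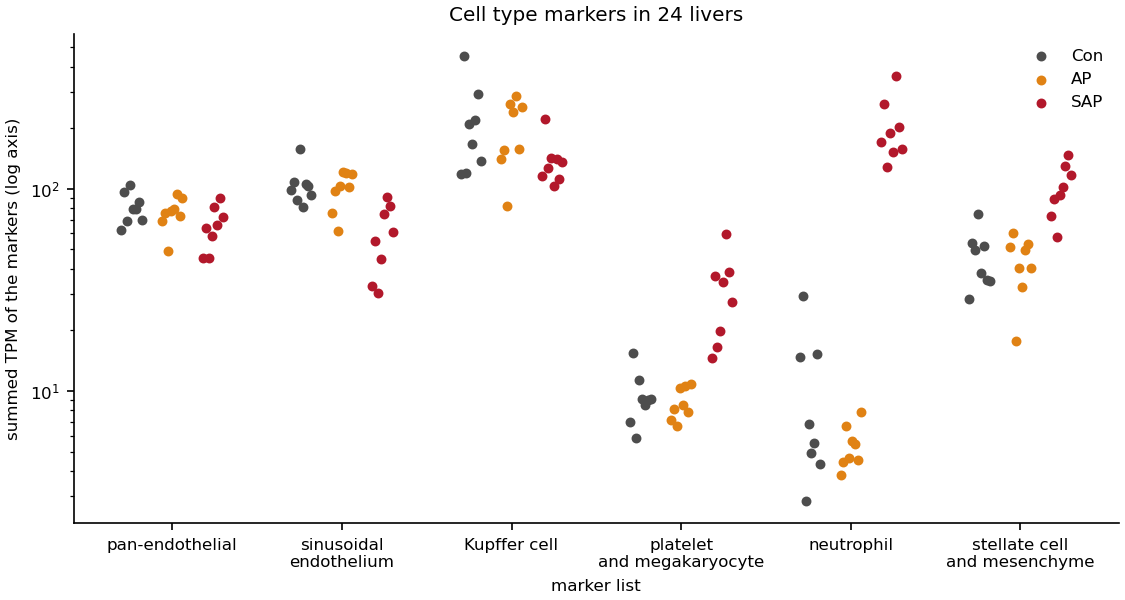
Summed TPM of 6 cell type marker lists in each library, by group, on a log axis. Neutrophil sums lie higher in every SAP liver (128.5 to 362 TPM). Platelet marker sums, mostly Pf4 and Clec1b in SAP, lie higher in all but the lowest SAP liver (14.6 to 59.7 TPM, against up to 15.4 TPM in controls). Sinusoidal sums (30.3 to 91.0 TPM) and pan-endothelial sums overlap with controls.

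The levels were also set against the pan-endothelial sum of the same liver. This sum is weighted to its highest markers and was 80.9 ± 14.3 TPM in controls and 65.3 ± 15.7 TPM in SAP. A lower sum raises the percentage of a gene whose own level is unchanged. Selp made 0.440 to 1.53% of that sum in controls and 17.1 to 54.7% in SAP, and Thbd 0.101 to 0.518% and 1.85 to 9.41%. Cdh5 went from 1.29 to 2.66% in controls to 8.42 to 14.7% in SAP, and Esam from 2.34 to 3.31% to 10.8 to 14.8%. Esam was the steadiest of these across SAP livers, at 12.9 ± 1.58%, although its TPM had separated the sets of SAP livers. Pecam1 was at 1.85 to 3.36% in controls and 2.60 to 7.27% in SAP, and Vwf at 2.67 to 9.98% and 0.770 to 8.25%, both with overlap. These percentages describe the level beside the markers and do not assign the transcripts to endothelial cells.

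**Figure D5:**
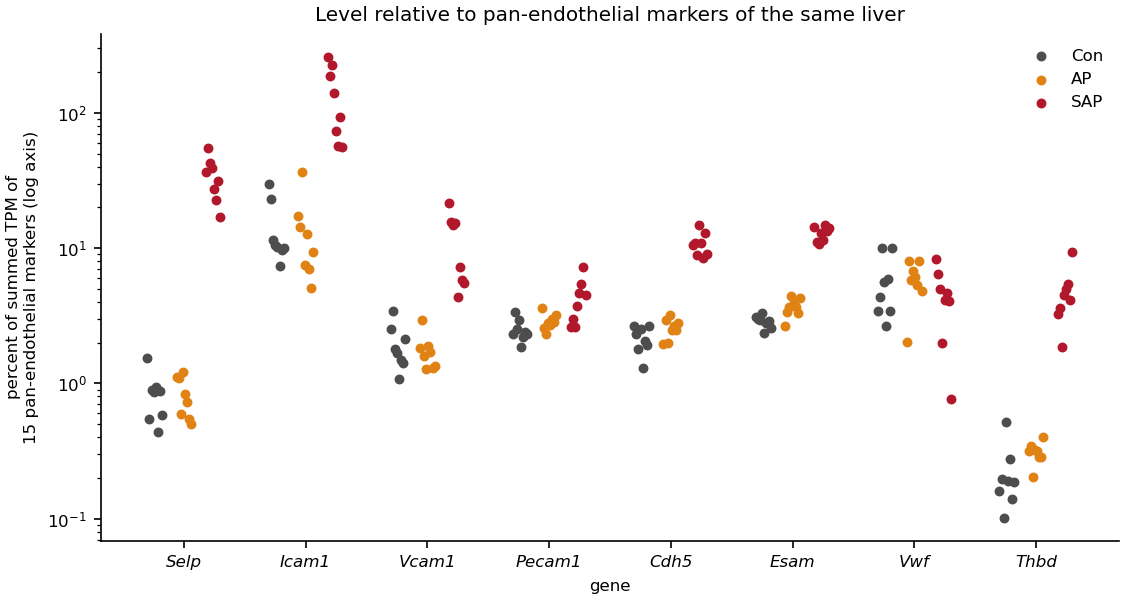
The level of 8 genes in each library as a percentage of the summed TPM of 15 pan-endothelial markers in that library, on a log axis, by group. Selp, Icam1, Vcam1, Cdh5, Esam and Thbd lie higher in every SAP liver than in each control, with Esam between 10.8 and 14.8%, and Pecam1 and Vwf overlap.

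Other genes of the pathway were taken from 7 lists, and the changes named here against controls in SAP kept their direction under the 4 other scalings tried. Their counts stand beside 44.2% of all tested genes higher and 29.8% lower in SAP, and nothing particular to a list is read from them. Some listed genes, as Selp and Thbd above, averaged 1 TPM only through the SAP livers, where they had to be high. Those numbered 3 of 15 in the NF-kB list, 3 of 13 in the haemostasis list, 2 of 9 each in the shedding and the angiopoietin and VEGF lists, and 1 each of the 9 adhesion partners and the 6 quiescence genes. Of the genes named here, Tnfaip3, Plaur, Sphk1 and Timp1 were among them. Of 15 tested genes of cytokine input and NF-kB signalling, 13 rose in SAP (10 of the 12 that did not need SAP to be tested), 1 fell (Irf1) and 1 did not pass, with a median log2 change of 1.92 against 0.21 for all genes. Il1r1, the interleukin-1 receptor, rose from 4.68 ± 1.71 to 75.9 ± 11.0 TPM (limma adjusted p = 1.33e-13), and Tnfaip3, a feedback inhibitor of NF-kB, from 0.226 ± 0.224 to 15.3 ± 9.05 TPM (adjusted p = 3.67e-11). In AP against controls 0 of the 15 passed, and over the other 6 lists 2 genes did, both in the haemostasis list.

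Of 6 tested leukocyte integrin and selectin ligand genes 3 rose, 2 fell and 1 did not pass in SAP, and 2 rose and 2 fell under median centring. St3gal4, a sialyltransferase that helps to build selectin ligands, rose from 14.9 ± 3.25 to 32.5 ± 11.7 TPM (limma adjusted p = 4.41e-06), and the integrin chain Itgb1 from 12.3 ± 1.87 to 20.3 ± 5.87 TPM (adjusted p = 0.000201). Selplg, the P-selectin ligand of leukocytes and the remaining gene that rose, went from 1.49 to 2.87 TPM (limma adjusted p = 0.0189), and Itgb7 and Fermt3 fell. Itgb2, the shared chain of LFA-1 and Mac-1, missed the threshold with 1.44 and 1.83 TPM (limma adjusted p = 0.19). Of 9 endothelial adhesion partners 6 rose and 1 fell, with 3 lower under median centring. Pvr, an adhesion receptor of junctions, rose from 1.55 ± 0.354 to 6.93 ± 3.93 TPM (limma adjusted p = 5.97e-07) and the junction gene F11r from 15.2 ± 4.88 to 29.1 ± 3.44 TPM (adjusted p = 3.63e-06). Icam2, a resting endothelial relative of Icam1, missed it in the main fit with 1.52 and 1.45 TPM (limma adjusted p = 0.865). It was among the 3 lower under median centring. Of the genes that act on shed receptors, 5 of 9 rose and 2 fell. Timp1, an inhibitor of metalloproteinases, rose from 1.17 ± 1.77 to 33.9 ± 10.2 TPM (limma adjusted p = 5.39e-13), and the membrane protease Adam9 from 1.37 ± 0.194 to 14.9 ± 7.76 TPM (adjusted p = 2.51e-11). Selplg, Itgb7, Fermt3, Itgb2, Icam2, Irf1 and the genes named below without an SD were picked after their values had been seen.

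In the angiopoietin and VEGF list 5 of 9 genes were lower in SAP and 2 higher, with a median log2 change of -0.74. Vegfb fell from 8.46 ± 1.79 to 2.74 ± 0.616 TPM (limma adjusted p = 6.04e-09) and Vegfa from 18.7 ± 5.96 to 7.46 ± 2.16 TPM (adjusted p = 1.66e-06). Tek, which encodes the angiopoietin receptor Tie2, fell from 1.58 to 0.371 TPM (limma adjusted p = 3.84e-06). Its relative Tie1 missed the threshold in the main fit with 1.15 and 1.16 TPM. Under median centring 6 of the 9 genes were lower and 1 was higher. Of 13 genes of endothelial haemostasis 6 rose and 4 fell, shares near those of all genes, and of the 10 tested without need of SAP 3 rose and 4 fell. Plaur, the urokinase receptor, rose from 0.310 ± 0.246 to 9.72 ± 3.05 TPM (limma adjusted p = 1.39e-14). In AP livers Proc, the zymogen that thrombomodulin helps to activate, rose (260.9 to 342 TPM, limma adjusted p = 0.0373), a call lost under each of the 4 other scalings (adjusted p between 0.0981 and 0.219), and Adamts13, the protease that cleaves von Willebrand factor, fell (5.31 to 1.33 TPM, limma adjusted p = 0.0384, at most 0.0491 under those scalings). In SAP both were lower than in controls, Proc at 189.7 TPM (limma adjusted p = 0.000472) and Adamts13 at 0.834 TPM (adjusted p = 0.000643). Of 6 genes of endothelial quiescence and vasomotor control 4 rose and 2 fell in SAP, and 2 rose and 2 fell under median centring. Sphk1, a sphingosine kinase, rose from 0.130 ± 0.0929 to 9.28 ± 2.82 TPM (limma adjusted p = 5.39e-16) and the flow-responsive factor Klf2 from 3.18 ± 0.640 to 19.9 ± 17.1 TPM (adjusted p = 2.87e-07).

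Likeness between genes was taken as the root mean square difference between log2 levels standardised over the 24 libraries, where 0 means the same pattern. For genes that differ in SAP it mostly follows the step between SAP and the other livers. That step is shared by many genes, so a small difference does not set a pair apart. Among the tested genes of the set, Cdh5 and Esam were most alike (0.267), followed by Esam and Thbd (0.307), Icam1 and Vcam1 (0.374) and Selp and Icam1 (0.383). Vwf was the farthest, at 1.44 or more from every other one. Among 9430 other genes, Selp was nearest to P2ry2, a nucleotide receptor (0.137), and to Slc10a6 (0.149), which both averaged 1 TPM only through the SAP livers. Icam1 was nearest to Gbp2b, an interferon-induced GTPase (0.224), and Sbno2 (0.225). Vcam1 was nearest to Sat1 (0.230) and Ccl3 (0.253), and Thbd to Nek7 (0.223) and Pdk4 (0.227). Pkp2, which encodes a junction plaque protein, was the nearest gene to Esam (0.184) and the second nearest to Cdh5 (0.268), after the basement membrane gene Nid1 (0.248). Ccl3, Pdk4 and Nid1, like P2ry2 and Slc10a6, averaged 1 TPM only through the SAP livers, where they had to be high. Their likeness was thus partly fixed by the filter. Esam was also near Hars (0.200). The nearest genes to Pecam1 were Tpm1 (0.493) and Cmtm3 (0.498). Ndufc1 was near Vwf at 0.812.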

How the data were processed

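The deposited table holds 55536 entries in 24 libraries, in TPM made by the authors, with 2 decimals. No header names the unit, which was read from the values: columns have nearly equal sums, and the smallest values above 0 fall with transcript length (median 0.17 TPM at 300 to 600 bases, 0.01 TPM at 3000 to 6000). Per the labels' protocols, RNA came from frozen liver by Trizol. The sources used here do not name an aligner, a build, an annotation or a strand setting. Libraries were grouped by title.

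Entries that averaged 1 TPM or more were kept (10555; 44981 left out). Limma 3.58.1 (R 4.3.3) was fitted to log2(TPM + 1) of all 24 libraries with an intensity trend (21 residual degrees of freedom), with Benjamini-Hochberg adjustment over all entries tested, after the script was tested on simulated data. Overlaps came from GENCODE M21. At most 2.27% of the 50-base windows of a gene of the set (Icam1) occur in another gene.

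Besides the 10 genes, the text names the 2 genes per pathway list with the smallest p over the 3 groups, the highest marker of a list, and the 2 nearest profiles per gene without predicted or clone-named genes; a few genes that this rule names are not reported here, and others are marked as picked after their values were seen, and single markers named beside the highest one were picked likewise. Genes and lists were chosen with earlier results of these data known, so no list was tested as a set. Alternatives changed scaling, filter, pseudocount (0.1, 0.01), variance model, samples in the fit and threshold, or left out libraries. Those combined with no filter were added after the data were seen.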

Additional observations from a re-analysis of the deposited data

Results flagged for a closer look

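Single livers far from the other 7 of their group were looked for on the log2(TPM + 1) scale, with Dixon's 95% critical value for 8 samples, in 30 sets of 8 livers (10 genes in 3 groups). This found 5 values, from 4 livers. Chance gives about 1 in 20 sets where values are normally distributed. Con 6 was highest among controls for Thbd, at 0.54 TPM, and for Sele, at 0.04 TPM. AP 12 was highest in AP for Sele, at 0.05 TPM. These Sele values are a few steps of the table's 2 decimals above 0. In both groups 6 of the 8 Sele values are 0, so the chance rate does not hold for them. Con 3 was highest among controls for Vcam1, at 3.3 TPM. AP 13 was lowest in AP for Pecam1, at 1.14 TPM.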

How the results depend on the processing

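Depth is unknown, and Sele and Angpt2 lie near the table's 2 decimals. The labels give the groups no shared replicate numbers. No paired analysis was possible because of this. In all 42 alternatives the genes of the set that passed stayed at 0 for AP against controls (0 also when any single library was left out), and were 5 to 8 for SAP against controls and against AP, where single libraries left out gave 5 to 7. Thbd was not tested without SAP 29, without SAP 26 to 29, or with at least 1 TPM required in 8 libraries, which gave the counts of 5. Selp, Icam1, Vcam1, Cdh5 and Esam passed in all 40 alternatives run for single genes, Thbd in all 37, and Sele and Angpt2 in all 38 run without a filter; the lowest log2 changes against controls were 3.43, 2.27, 1.10, 1.26, 1.17 and 1.42 for Selp, Icam1, Vcam1, Cdh5, Esam and Thbd.

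Signs turned only for genes of the set whose log2 change had not passed in that comparison, and the cause was not tested. Pecam1 in SAP against AP was at -0.004 (quantile normalization), -0.019 (median centring) and -0.293 (without SAP 26 to 29), and against controls at -0.21 without those livers. For AP against controls, leaving out AP 15, 17, 18 and 19 gave 0.28 for Icam1, -0.049 for Pecam1, -0.064 for Cdh5, -0.008 for Esam and -0.222 for Vwf. Leaving out AP 11, 12, 13 and 16 gave -0.687 for Icam1, which was at -0.204 with all livers. Icam1 was at 10.2 to 18.1 TPM in AP 11, 12, 13 and 16 and at 3.71 to 8.34 TPM in the other AP livers. Rescaling without the 50 most abundant genes gave -0.007 for Pecam1 and -0.113 for Vwf. Vwf was also at -0.028 (quantile normalization), -0.043 (median centring), -0.078 (without mitochondrial transcripts) and -0.052 (without Con 3 and Con 9). Selp was at 0.012 with array weights. Leaving out single libraries gave ranges of -0.066 to 0.021 for Selp, -0.096 to 0.167 for Vwf and, without a filter, -0.007 to 0.009 for Sele. Sele was at -0.009 without AP 11, 12, 13 and 16 and -0.001 without Con 3 and Con 9, in alternatives chosen after seeing the data.

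The count over all genes for AP against controls (578) was the least stable. It was 11 without AP 15, 17, 18 and 19, 179 to 840 with single libraries left out (179 without Con 7, 184 without AP 15), 222 without a filter, 78 at an adjusted p under 0.01 and 1458 with array weights. An absolute log2 change of at least 1 left 84 genes there, 4031 of 7808 for SAP against controls and 3613 of 7607 for SAP against AP.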
